A study of Mus musculus with 12 samples.

Results

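The genes described here are 51 genes of the lysosome, comprising hydrolases, their cofactors and proteins of the lysosomal membrane, out of 29737 genes counted in cultured mouse neutrophils. They were chosen by name and function, with earlier results of these data known, and every one of them was found in the count table and passed the filter on low counts, which left 16761 genes to test. By function, 12 are glycosidases, 6 are sulfatases or activate them, 10 are proteases, 9 act on lipids, 11 are membrane proteins and 3 serve other steps of glycoprotein handling. Neutrophils were taken from the bone marrow of wild-type mice, enriched with magnetic beads and kept in medium with serum for 24 h. The vehicle PBS, taurocholic acid (TCA), the taurine conjugate of β-muricholic acid (Tβ-MCA) or glycocholic acid (GCA) was added, TCA and GCA at 200 μM, and each of these 4 groups had 3 samples. For Tβ-MCA the labels of the samples give 10 μM, whereas the methods of the study give 200 μM, so that its comparison with TCA concerns the treatments as they were given and not a matched dose. All groups shared the same medium, serum and culture time. Neither the age of the mice behind each sample nor a pooling of animals is given in the labels, and although a legend of the study that covers these data among other assays speaks of independent experiments, no source ties the single samples to animals or cultures, so that p-values measure the spread between these samples.

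Lysosomal hydrolases are made in the endoplasmic reticulum, receive a mannose 6-phosphate tag in the Golgi and are carried by sorting receptors to an acidic compartment, where they take apart glycans, sulfated chains, proteins and lipids. Proteins of the lysosomal membrane keep the lumen acidic, release calcium and export cholesterol, amino acids and sugars. In neutrophils some of these enzymes are also stored in azurophil granules, and cathepsin C activates the serine proteases kept there. Transcription factors of the TFEB family act on many lysosomal genes through a short promoter element whose core is the E-box CACGTG.

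The E-box was therefore looked up in the promoters, taken as the 250 bases before and 50 bases after the annotated start of each gene in RefSeq for GRCm38.p6. A promoter was at hand for 44 of the 51 genes. The motif CACGTG, which reads the same on both strands, was found for 16 of these 44 genes (36.4%). It was found for 8.09% of all 27025 genes with a promoter and 11.3% of the 10369 tested genes with one. Promoters were counted per gene here and below, so that a gene with several annotated starts held the motif if any of its promoters did. The longer form TCACGTGA, which contains CACGTG, was found in 8 of 44 (18.2%), against 1.12% of all genes with a promoter and 2.09% of the tested genes with one. By class, the E-box was in 3 of 5 promoters of sulfatases, 4 of 8 of proteases, 4 of 9 of membrane proteins, 4 of 12 of glycosidases, 0 of 8 of lipid enzymes and 1 of 2 of the remaining genes. Such a match describes the sequence only and does not show binding. The following promoters are shown because they belong to genes that were higher with Tβ-MCA, with the addition of Lamp1, which holds the most E-boxes and was not called. Sequences run 5′ to 3′ on the strand of the gene with CACGTG in capitals. They lie at chr8:3500269-3500456 (Mcoln1, plus strand), chr17:25133141-25133390 (Clcn7, plus), chr6:108185584-108185833 (Sumf1, minus), chr8:13158911-13159160 (Lamp1, plus), chr11:101070009-101070038 (Naglu, plus) and chr11:119355522-119355551 (Sgsh, minus). Each sequence stops before the first base of the gene in the annotation used for counting, except for Naglu and Sgsh, of which only the 30 bases around the motif are shown.
Mcoln1: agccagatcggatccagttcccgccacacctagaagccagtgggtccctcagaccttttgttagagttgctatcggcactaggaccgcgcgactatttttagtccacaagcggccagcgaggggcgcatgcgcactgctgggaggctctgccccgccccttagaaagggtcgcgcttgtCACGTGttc
Clcn7: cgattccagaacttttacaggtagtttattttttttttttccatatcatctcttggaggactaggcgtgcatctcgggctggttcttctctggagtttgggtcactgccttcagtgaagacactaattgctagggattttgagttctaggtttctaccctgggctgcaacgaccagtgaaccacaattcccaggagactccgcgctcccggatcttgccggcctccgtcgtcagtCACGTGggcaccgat
Sumf1: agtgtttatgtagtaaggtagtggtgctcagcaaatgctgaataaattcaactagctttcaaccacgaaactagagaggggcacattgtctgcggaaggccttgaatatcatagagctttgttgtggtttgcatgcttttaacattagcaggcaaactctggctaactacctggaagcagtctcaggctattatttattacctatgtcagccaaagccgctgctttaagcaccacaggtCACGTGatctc
Lamp1: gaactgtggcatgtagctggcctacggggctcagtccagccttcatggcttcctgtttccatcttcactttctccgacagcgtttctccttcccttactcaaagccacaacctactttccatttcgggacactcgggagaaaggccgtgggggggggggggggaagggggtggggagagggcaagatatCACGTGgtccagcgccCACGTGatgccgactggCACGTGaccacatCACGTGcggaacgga
Naglu: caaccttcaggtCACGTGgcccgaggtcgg
Sgsh: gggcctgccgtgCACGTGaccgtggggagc
The single E-box of Naglu, Sgsh and Sumf1 began at -73, -29 and -11 bases from the start. Mcoln1 and Clcn7 each held 2, of which that at -45 in Mcoln1 and that at 8 in Clcn7 lie beyond the stretch shown, and the 4 of Lamp1 lay between -61 and -10.

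**Figure D1:**
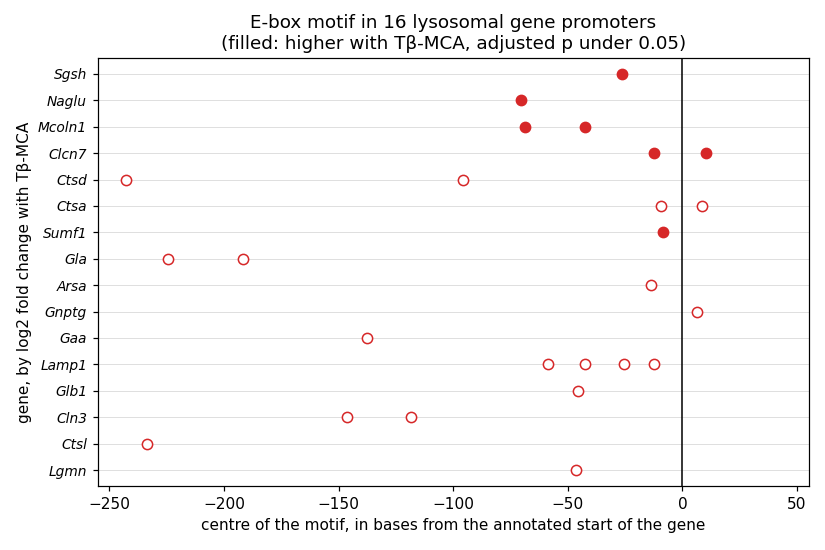
Position of CACGTG in the 16 promoters that hold it, in bases from the annotated start (vertical line), with genes ordered from the highest to the lowest log2 fold change with Tβ-MCA. Filled points mark the 5 genes that were higher with Tβ-MCA at an adjusted p under 0.05, and open points the 11 that were not.

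Before any comparison, the samples were examined for those that stand apart. Total counts lay between 32757389 and 41375925, and the counts of the 51 genes between 88 and 78338 in any sample, far above the 3 counts taken as the limit of detection. All 14 neutrophil markers were detected in every sample, with S100a9, an abundant calcium-binding protein of neutrophils, between 17455 and 25502 CPM (counts scaled to a common library size after TMM normalisation) and Ly6g, the marker of the label, between 7.54 and 21.4 CPM. The 15 monocyte and macrophage markers were present as well. Their summed level lay between 2319 and 3017 CPM with PBS, between 2535 and 3195 with TCA and between 2305 and 3148 with GCA, whereas replicates 3, 4 and 5 of Tβ-MCA reached 980, 1381 and 2478 CPM. Hence Tβ-MCA replicate 5 stood nearer to the other groups in these markers than replicates 3 and 4 did. In the lysosomal genes it lay between the mean of the PBS samples and the mean of replicates 3 and 4 for 37 of the 51 genes. For all genes this count was not made. Results with Tβ-MCA are therefore given with and without replicate 5. Fewer cells of a type and less RNA per cell cannot be told apart in such bulk samples.

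In cells given PBS the levels of the 51 genes spanned a wide range, given per exon length as RPKM (reads per kilobase of exon, scaled to the reads counted). The highest mean levels with PBS were those of Psap, the precursor of the saposins that assist lipid breakdown, at 561 ± 73.7 RPKM (SD, n = 3), and of Ctsd, the aspartic protease cathepsin D, at 484 ± 79.7 RPKM. These neighbours overlapped, with 476 to 610 RPKM for Psap and 394 to 546 RPKM for Ctsd. Ctss (cathepsin S) followed at 282 ± 46.1 RPKM, and the tetraspanin Cd63, a membrane protein that is also found on azurophil granules, at 256 ± 20.7 RPKM. Within the remaining classes the most abundant genes were Hexa, the α-subunit of β-hexosaminidase (95.2 ± 0.722 RPKM), Galns, a sulfatase of keratan sulfate (24.4 ± 1.68 RPKM), and Gnptg, a subunit of the enzyme that starts the mannose 6-phosphate tag (6.05 ± 0.138 RPKM). The lowest levels were those of Glb1 (β-galactosidase) at 1.46 ± 0.279 RPKM and Ids (iduronate 2-sulfatase) at 1.11 ± 0.107 RPKM. The 3 genes with the largest change with Tβ-MCA, described next, were Sgsh, Ppt1 and Ctsc, which ranked 41, 18 and 43 of 51 by their RPKM with PBS.

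To see how the lysosomal genes responded to Tβ-MCA, its samples were compared with those of PBS. The 51 genes together took 0.76% to 0.888% of all counts with PBS and 0.937% to 1.04% with Tβ-MCA, without overlap. The share was 0.772% to 0.866% with TCA and 0.803% to 0.957% with GCA, and that with GCA overlapped both PBS and Tβ-MCA. Abundant genes weigh most in this share. Of these, Psap and Ctsd, which were not called, went from means of 1557 and 1150 CPM to 2013 and 1516 CPM. Cln3, also abundant, was at 1253 CPM with PBS and 1249 CPM with Tβ-MCA. With edgeR's quasi-likelihood test and Benjamini-Hochberg adjustment over all genes, 15 of the 51 genes were higher and 2 were lower with Tβ-MCA at an adjusted p under 0.05. Of all 16761 genes tested, 4.44% were called higher and 3.18% lower, 7.62% in all. DESeq2 called 17 of the 51 genes higher and 3 lower, beside 6.02% and 5.91% of all genes. The median log2 fold change of the 51 genes was 0.24, against 0.004 for all genes, and 38 of them had a positive value. The groups did not overlap for 26 genes that were higher and 3 that were lower, beside 14.1% and 12.8% of all genes. As the list was drawn up with results of this comparison in view, these shares are a description and no independent support. Only Sgsh also passed the rule of the study, which takes an unadjusted p under 0.05 and a fold change of at least 2, and by which 1.09% of all genes were higher. Without Tβ-MCA replicate 5, 21 genes were higher and 8 lower, beside 8.52% and 9.44% of all genes, and the 17 genes of the full comparison were among them. When another sample was left out, the adjusted calls were largely lost. Without PBS replicate 3, PBS replicate 5, Tβ-MCA replicate 3 or Tβ-MCA replicate 4 edgeR called 0 of the 51 genes and 0% of all genes, and without PBS replicate 6 Idua, Manba, Naglu and Aga were called, all higher (0.607% of all genes). At an unadjusted p under 0.05, 25 genes were higher with all samples, beside 12.6% of all genes. Leaving out PBS replicate 3, 5 or 6 gave 20, 26 and 25 such genes, beside 10.9%, 10.3% and 11.3% of all genes, and leaving out Tβ-MCA replicate 3 or 4 gave 22 each, beside 9.18% and 8.84%.

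**Figure D2:**
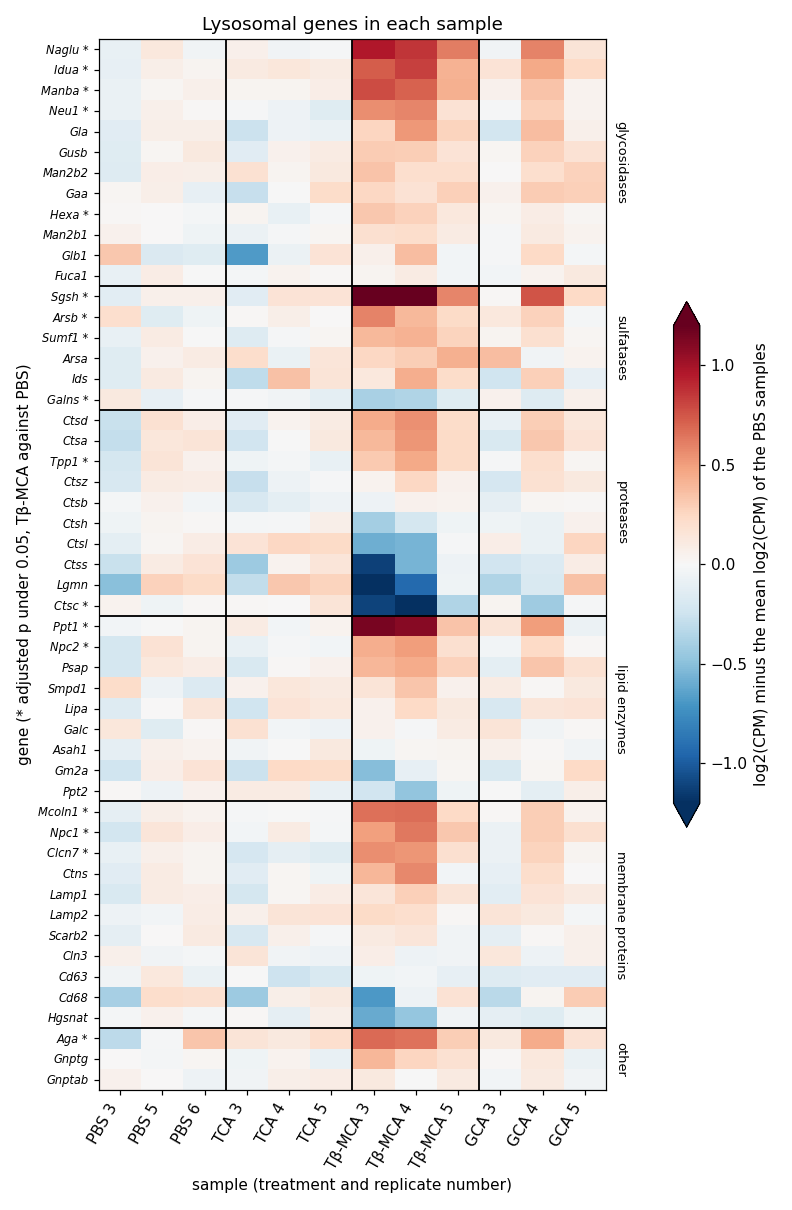
Each of the 51 genes (rows, by class) in each of the 12 samples (columns), as log2(CPM) minus the mean log2(CPM) of the PBS samples, with the color scale ending at -1.2 and 1.2. The red block of glycosidases, Sgsh, Ppt1 and Mcoln1 and the blue block of Ctsl, Ctss, Lgmn and Ctsc are deepest in Tβ-MCA replicates 3 and 4, paler in Tβ-MCA replicate 5, and red in part in GCA replicate 4.

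Glycosidases cleave the sugars of glycoproteins, glycolipids and glycosaminoglycans, and all 12 had a positive log2 fold change with Tβ-MCA (median 0.25). Of these, 5 rose, namely Naglu, Idua, Manba, Neu1 and Hexa. Naglu, an α-N-acetylglucosaminidase of heparan sulfate breakdown, was at 9.9, 11.5 and 10.2 CPM in the PBS samples (replicates 3, 5 and 6, in this order throughout) and at 20.4, 19.1 and 16.1 CPM with Tβ-MCA (replicates 3, 4 and 5). All 3 treated samples lay above all PBS samples, a 1.76-fold difference with a log2 fold change of 0.81 ± 0.14 (SE, edgeR adjusted p = 0.0206). Idua, the α-L-iduronidase that acts on heparan and dermatan sulfate, was at 28.9, 32.5 and 31.6 CPM with PBS and at 51.1, 54.5 and 41.3 CPM with Tβ-MCA. Again no value overlapped, and the log2 fold change was 0.66 ± 0.10 (edgeR adjusted p = 0.0206). Manba, the β-mannosidase, was at 13.7, 14.7 and 15.1 CPM with PBS and at 24.9, 23.7 and 19.5 CPM with Tβ-MCA (log2 fold change 0.64 ± 0.11, edgeR adjusted p = 0.0206). For each of these enzymes the lowest treated value was that of replicate 5. Neu1, a sialidase, rose less, from a mean of 103 to 141 CPM (log2 fold change 0.45 ± 0.10, edgeR adjusted p = 0.0238). Hexa had the smallest change among the genes called, from 192 to 228 CPM (0.24 ± 0.06, edgeR adjusted p = 0.0308). The other 7 glycosidases (Gla, Gusb, Man2b2, Gaa, Man2b1, Glb1 and Fuca1) did not pass, with log2 fold changes from 0.03 to 0.35, and of these Gusb and Man2b1 passed without replicate 5. Exons of Idua and Hexa overlap those of genes on the opposite strand by up to 141 and 255 bases, and the sources used here do not say whether reads were assigned by strand. In all, 17 of the 51 genes share exon bases with another gene, 3 of them on the same strand. Among these 3, Ctsd shares 808 of its 2351 exon bases.

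Sulfatases remove sulfate groups and are switched on by the formylglycine-generating enzyme Sumf1. Sgsh, the sulfamidase of heparan sulfate (chr11:119343425-119355536, minus strand), had the largest change of all 51 genes. It was at 19.1, 21.8 and 21.8 CPM with PBS and at 55.7, 48.8 and 31.3 CPM with Tβ-MCA, a 2.16-fold difference (log2 fold change 1.11 ± 0.22, edgeR adjusted p = 0.0238). The groups did not overlap, although replicate 5 stood well below the other treated samples. Arsb, which desulfates dermatan and chondroitin sulfate, went from a mean of 40.7 to 53.8 CPM (log2 fold change 0.40 ± 0.11, edgeR adjusted p = 0.0352). Sumf1 itself was at 26.9, 30.7 and 28.5 CPM with PBS and at 37.6, 38.3 and 34.5 CPM with Tβ-MCA (0.36 ± 0.08, edgeR adjusted p = 0.0251). In contrast, Galns fell by 0.30 on the log2 scale (SE 0.09), with 70.8, 60.8 and 64.7 CPM with PBS and 49.9, 50.7 and 59.2 CPM with Tβ-MCA. With an adjusted p of 0.0473 by edgeR it was the last gene inside the threshold, and Psap, at 0.0579, was the nearest one outside. Ids and Arsa had log2 fold changes of 0.26 and 0.32 and did not pass. Arsb shares 1948 of its 3989 exon bases with Gm26527 and Sgsh 955 with Card14, both on the opposite strand. When the replicate number was a block, neither Sgsh (edgeR adjusted p = 0.101) nor Galns (0.0722) was called.

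**Figure D3:**
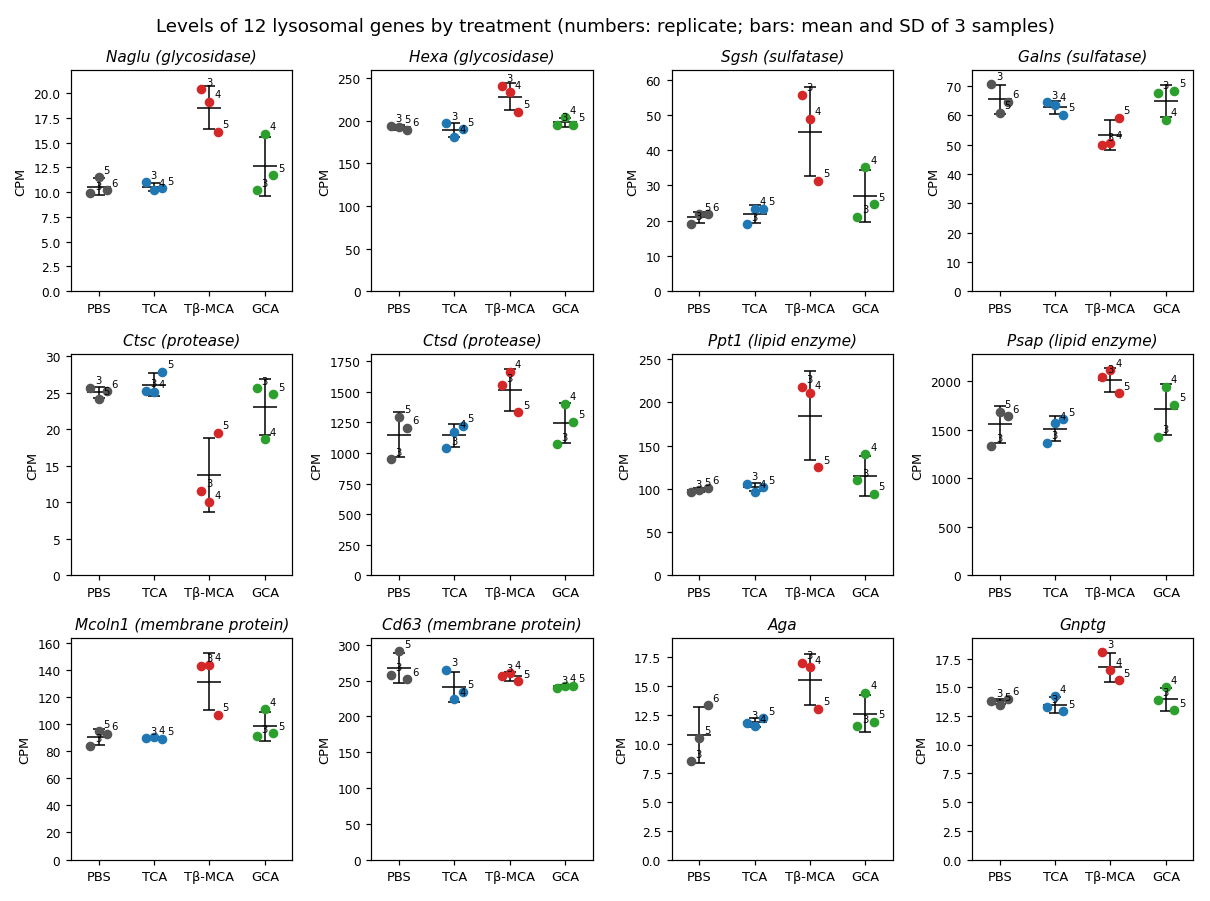
CPM of the gene with the largest change and the gene with the highest RPKM in each class, by treatment, with points for single samples (numbered by replicate) and bars for mean and SD of 3 samples. Naglu, Sgsh, Ppt1 and Mcoln1 lie higher and Ctsc lower in every Tβ-MCA sample than in any PBS sample, while Cd63 overlaps between the groups.

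Proteases were divided. Tpp1, an aminopeptidase, rose with Tβ-MCA (56.9 to 71.4 CPM, log2 fold change 0.33 ± 0.09, edgeR adjusted p = 0.0416), and Ctsc fell. Ctsc, or cathepsin C (chr7:88278085-88310888, plus strand of GRCm38), activates the granule serine proteases of neutrophils. Its level was 25.7, 24.2 and 25.2 CPM with PBS and 11.6, 9.99 and 19.5 CPM with Tβ-MCA. The spread of the PBS samples was narrow and no treated sample reached it (log2 fold change -0.87 ± 0.20, edgeR adjusted p = 0.0307), and without replicate 5 the log2 fold change was -1.21. Ctsd was at 949, 1295 and 1207 CPM with PBS and at 1553, 1664 and 1331 CPM with Tβ-MCA, without overlap, and it passed once replicate 5 was left out (edgeR adjusted p = 0.0697 with it and 0.0217 without it). Ctsa, the protective protein of β-galactosidase and Neu1, also stood higher without overlap and did not pass with or without replicate 5 (0.38 ± 0.15, edgeR adjusted p = 0.141), and Ctsz and Ctsb had log2 fold changes of 0.11 and 0.01. Several cysteine proteases pointed the other way. Ctss, which is known for trimming the invariant chain in antigen-presenting cells, was at 320, 412 and 431 CPM with PBS and at 177, 262 and 369 CPM with Tβ-MCA (edgeR adjusted p = 0.253, and 0.0377 without replicate 5). Lgmn, the asparaginyl endopeptidase legumain, was at 44.8, 76.8 and 74.4 CPM with PBS and at 19.6, 33.2 and 61.1 CPM with Tβ-MCA (edgeR adjusted p = 0.29, and 0.0474 without replicate 5). In both cases replicate 5 fell within the range of the PBS samples. Ctsl and Ctsh likewise were lower once replicate 5 was left out, with log2 fold changes of -0.57 and -0.31. Thus 2 proteases were higher (Ctsd, Tpp1) and 5 lower (Ctsc, Ctsh, Ctsl, Ctss, Lgmn) in that comparison, and the median of the 10 was -0.16. Of all genes, 8.52% were higher and 9.44% lower in it.

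The samples in which these proteases were lowest were also lowest in monocyte and macrophage markers. All 15 of these markers had a negative log2 fold change with Tβ-MCA (median -0.69). None passed with edgeR when all samples were used (5 at an unadjusted p under 0.05, and 3 with DESeq2), whereas 12 were lower without replicate 5. Of all genes, 12.3% were lower at an unadjusted p under 0.05, 5.91% with DESeq2 and 9.44% without replicate 5. Apoe, F13a1 and Csf1r were the most abundant of them. F13a1, a coagulation factor subunit of monocytes, was at 584, 519 and 529 CPM with PBS and at 54.8, 75.9 and 367 CPM with Tβ-MCA. Apoe, a lipid carrier made by macrophages, was at 1237, 1906 and 1904 CPM with PBS and at 670, 1009 and 1620 CPM with Tβ-MCA. Both were lowest in replicates 3 and 4. Neutrophil markers moved as well. Of 14, 13 had a negative log2 fold change, and Ly6g, S100a8, Mmp9 and Camp were lower (10 of 14 without replicate 5). Beside these, 3.18% of all genes were lower with all samples and 9.44% without replicate 5. Mpo, the myeloperoxidase of the azurophil granule, which was picked after its values were seen, was at 209, 195 and 206 CPM with PBS and at 32.3, 44.5 and 154 CPM with Tβ-MCA (edgeR adjusted p = 0.137, and 6.21e-05 without replicate 5). The 15 genes that rose with Tβ-MCA had the opposite sign to all 15 monocyte and macrophage markers and to 13 of 14 neutrophil markers. As these 15 genes were picked for having risen, this contrast was fixed by the choice and carries no information. The part of either list in the changes of the lysosomal genes was not tested.

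**Figure D4:**
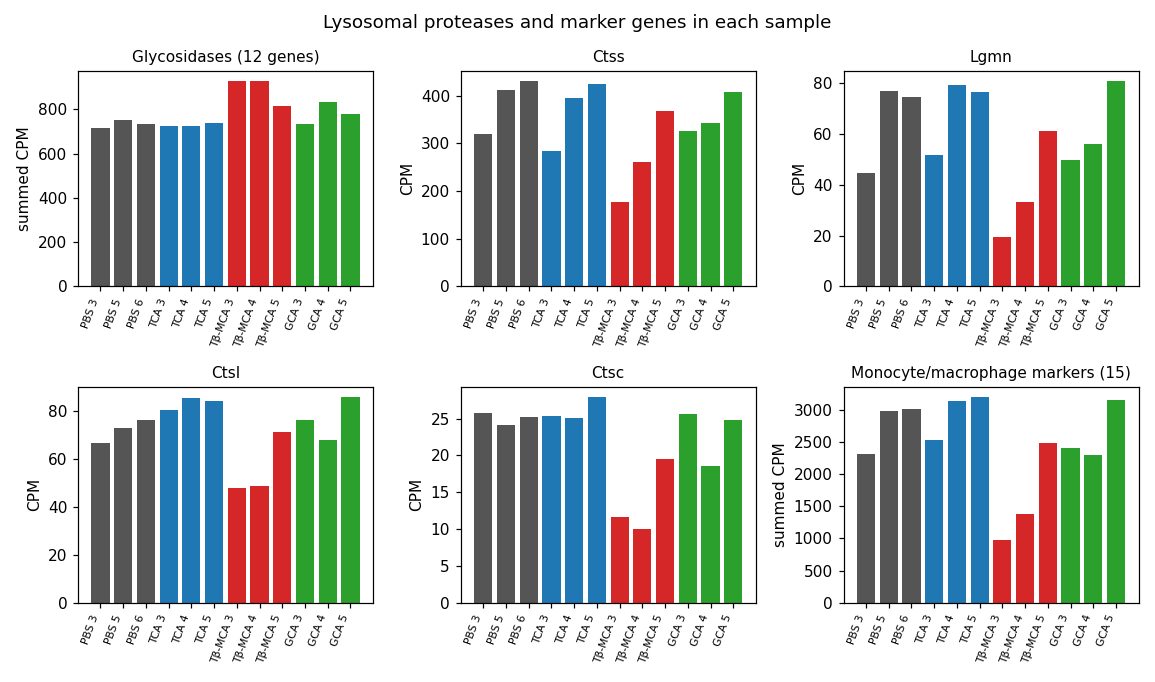
Level in each of the 12 samples of the 12 glycosidases together, of the proteases Ctss, Lgmn, Ctsl and Ctsc, and of the 15 monocyte and macrophage markers together (CPM). The glycosidase sum is at 815 to 927 CPM with Tβ-MCA and at 715 to 750 CPM with PBS, whereas the marker sum lies between 2319 and 3017 with PBS and falls to 980 (replicate 3) and 1381 (replicate 4) with Tβ-MCA.

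Among the lipid enzymes, Ppt1 and Npc2 rose with Tβ-MCA. Ppt1, the palmitoyl-protein thioesterase that takes fatty acids off proteins, was at 96.7, 98.7 and 101 CPM with PBS and at 218, 211 and 125 CPM with Tβ-MCA. Replicates 3 and 4 were thus at about the same level, with replicate 5 closer to PBS (log2 fold change 0.90 ± 0.20, edgeR adjusted p = 0.0295, and 1.12 without replicate 5). Npc2, the soluble cholesterol carrier that hands cholesterol to Npc1, was at 116, 151 and 137 CPM with PBS and at 181, 190 and 153 CPM with Tβ-MCA (0.37 ± 0.10, edgeR adjusted p = 0.0398). With the replicate number as a block, neither Ppt1 (edgeR adjusted p = 0.103) nor Npc2 (0.0886) passed. Psap was at 1339, 1689 and 1642 CPM with PBS and at 2047, 2115 and 1877 CPM with Tβ-MCA, which did not overlap, and was called without replicate 5 (edgeR adjusted p = 0.0335). The acid lipase Lipa, the ceramidase Asah1, the galactosylceramidase Galc and the sphingomyelinase Smpd1 had log2 fold changes between 0.00 and 0.17 in size and did not pass. Ppt2 and Gm2a, at -0.24 and -0.18, did not pass either, and Ppt2 was lower without replicate 5.

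Of the membrane proteins, Mcoln1, Npc1 and Clcn7 rose. Mcoln1 encodes the calcium channel of the lysosome and was at 83.9, 94.9 and 92.8 CPM with PBS and at 143, 144 and 107 CPM with Tβ-MCA (log2 fold change 0.54 ± 0.10, edgeR adjusted p = 0.0208). Npc1 exports cholesterol from the lysosome and was at 73, 94.1 and 90.4 CPM with PBS and at 120, 132 and 107 CPM with Tβ-MCA (0.48 ± 0.11, edgeR adjusted p = 0.0266). Clcn7, the chloride-proton exchanger, was at 54, 59.9 and 59.1 CPM with PBS and at 85, 83 and 65.8 CPM with Tβ-MCA (0.43 ± 0.10, edgeR adjusted p = 0.0251). No value overlapped between the groups in any of the 3 genes. Several other membrane proteins had smaller changes. Lamp1, whose promoter holds 4 E-boxes, went from 387 to 441 CPM (0.19 ± 0.10, edgeR adjusted p = 0.234) without overlap, and Lamp2, Scarb2, Cln3 and Cd63 had log2 fold changes between -0.06 and 0.15. Ctns, the cystine exporter, was higher and Hgsnat, which acetylates heparan sulfate at the lysosomal membrane, was lower without replicate 5 (log2 fold changes 0.49 and -0.54). Cd68, a macrophage-associated membrane protein, was at 131, 200 and 197 CPM with PBS and at 107, 166 and 195 CPM with Tβ-MCA, with overlap. In the last class Aga, which cuts the link between glycan and asparagine, went from 10.8 to 15.5 CPM and was the only gene called whose groups overlapped (0.53 ± 0.15, edgeR adjusted p = 0.0452). Gnptg was higher once replicate 5 was left out (0.33 on the log2 scale), and Gnptab had a log2 fold change of 0.07.

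Of the 15 genes that rose, 13 had a promoter at hand and 5 of these held the E-box (38.5%), which are those printed at the start apart from Lamp1. Of the 31 other promoters 11 held it (35.5%), a share close to that of the genes that rose.

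As a further view of the same pathway, 49 lysosomal genes outside the list were examined, which were also chosen with earlier results known. Of the 47 tested, 11 were higher and 1 was lower with Tβ-MCA, beside the 4.44% and 3.18% of all genes. Without replicate 5, 14 were higher and 5 lower, beside 8.52% and 9.44% of all genes, so that the number lower was near the share of all genes. Among those that rose were the amino acid transporter Slc36a1 (42.1, 44.4 and 42.6 CPM with PBS and 65.3, 55.7 and 50.5 CPM with Tβ-MCA, log2 fold change 0.41 ± 0.08, edgeR adjusted p = 0.0208) and the sialic acid exporter Slc17a5 (0.41 ± 0.10, edgeR adjusted p = 0.0253). The gene that fell was Cd164, a sialomucin (-0.37, edgeR adjusted p = 0.0368), which was named after its value was seen. Of the receptors that sort hydrolases, Igf2r, the larger mannose 6-phosphate receptor, rose from 184, 201 and 199 CPM to 235, 254 and 221 CPM (0.28 ± 0.08, edgeR adjusted p = 0.0406), whereas M6pr and Sort1 had log2 fold changes of -0.02 and 0.01. Nagpa, which was listed with them but is not a receptor, had one of -0.05. None of the 4 genes of the TFEB family passed with edgeR when all samples were used. Tfeb, Tfe3 and Mitf had log2 fold changes of 0.02, -0.08 and 0.05, and Tfec, at -0.56, was the single member with an unadjusted p under 0.05 and was called lower by DESeq2 and, without replicate 5, by edgeR (-0.81, adjusted p = 0.0041). Among the cystatins, which inhibit cysteine cathepsins, Cst3 and Cst7 fell (-0.38 and -0.61, edgeR adjusted p = 0.0238 and 0.0491), and Cstb had a log2 fold change of -0.14. Without replicate 5 Cst3 passed and Cst7 did not (edgeR adjusted p = 0.0917).

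Next, the lysosomal genes were examined after TCA and GCA. With TCA, 0 of the 51 genes were called against PBS by edgeR or DESeq2, and 0 had an unadjusted p under 0.05. Of all 16761 genes, edgeR called 0% and DESeq2 0.00597%, and 546 (3.26%) had an unadjusted p under 0.05. The log2 fold changes of the 51 genes ranged from -0.17 to 0.21, with a median of 0.00. Cd63 and Ctsb had the lowest p. Cd63 was at 258, 291 and 252 CPM with PBS and at 265, 224 and 234 CPM with TCA, which overlapped (log2 fold change -0.15 ± 0.07). Ctsb was at 577, 607 and 574 CPM with PBS and at 513, 541 and 560 CPM with TCA, a separation without overlap that did not pass (-0.12 ± 0.06). Groups without overlap were found for 4 of the 51 genes and 9.67% of all genes.

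With GCA, 0 of the 51 genes were called by edgeR or DESeq2, and Idua was the only one with an unadjusted p under 0.05. Again 0% of all genes were called by either tool, and 591 (3.53%) had an unadjusted p under 0.05. Idua was at 34.7, 42.5 and 36.6 CPM with GCA, all above its PBS values (log2 fold change 0.29 ± 0.10, edgeR adjusted p = 0.999). Cd63, at 240, 243 and 243 CPM, was below PBS in every sample (-0.14 ± 0.07). Groups without overlap were again found for 4 of the 51 genes, beside 9.55% of all genes. The 3 samples with GCA were uneven. GCA replicate 4 exceeded all 8 PBS, TCA and other GCA samples in 27 of the 51 genes, among them all 15 genes that rose with Tβ-MCA. The same count was not made over all genes, so that it describes this sample and nothing particular to the lysosomal genes. Sgsh was at 21.1, 35.1 and 24.6 CPM in GCA replicates 3, 4 and 5, and Ppt1 at 110, 140 and 94.1 CPM, so that replicate 4 lay above Tβ-MCA replicate 5 in both. The summed monocyte and macrophage markers of GCA replicate 4 were at 2305 CPM, the lowest value of its group. Those of GCA replicate 3 and PBS replicate 3 were close to it, at 2411 and 2319 CPM. Apoe weighs most in this sum, and single markers differed between these samples. In GCA replicate 4, GCA replicate 3 and PBS replicate 3, F13a1 was at 315, 574 and 584 CPM. In the same order Apoe was at 1526, 1370 and 1237 CPM and Csf1r at 226, 192 and 215 CPM. The median log2 difference of the 51 genes from the PBS mean was 0.16 in GCA replicate 4, -0.02 in GCA replicate 3 and -0.1 in PBS replicate 3. A link between the markers and these genes was not tested. Between GCA and TCA, 0 of the 51 genes and 0% of all genes were called by edgeR or DESeq2 (412 genes, or 2.46%, at an unadjusted p under 0.05). Clcn7, at 54.8, 69.3 and 59.1 CPM with GCA and 50.1, 53.6 and 52.2 CPM with TCA, was the only one with an unadjusted p under 0.05 (log2 fold change 0.23 ± 0.10), followed by Gaa, the acid α-glucosidase (0.22 ± 0.11).

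**Figure D5:**
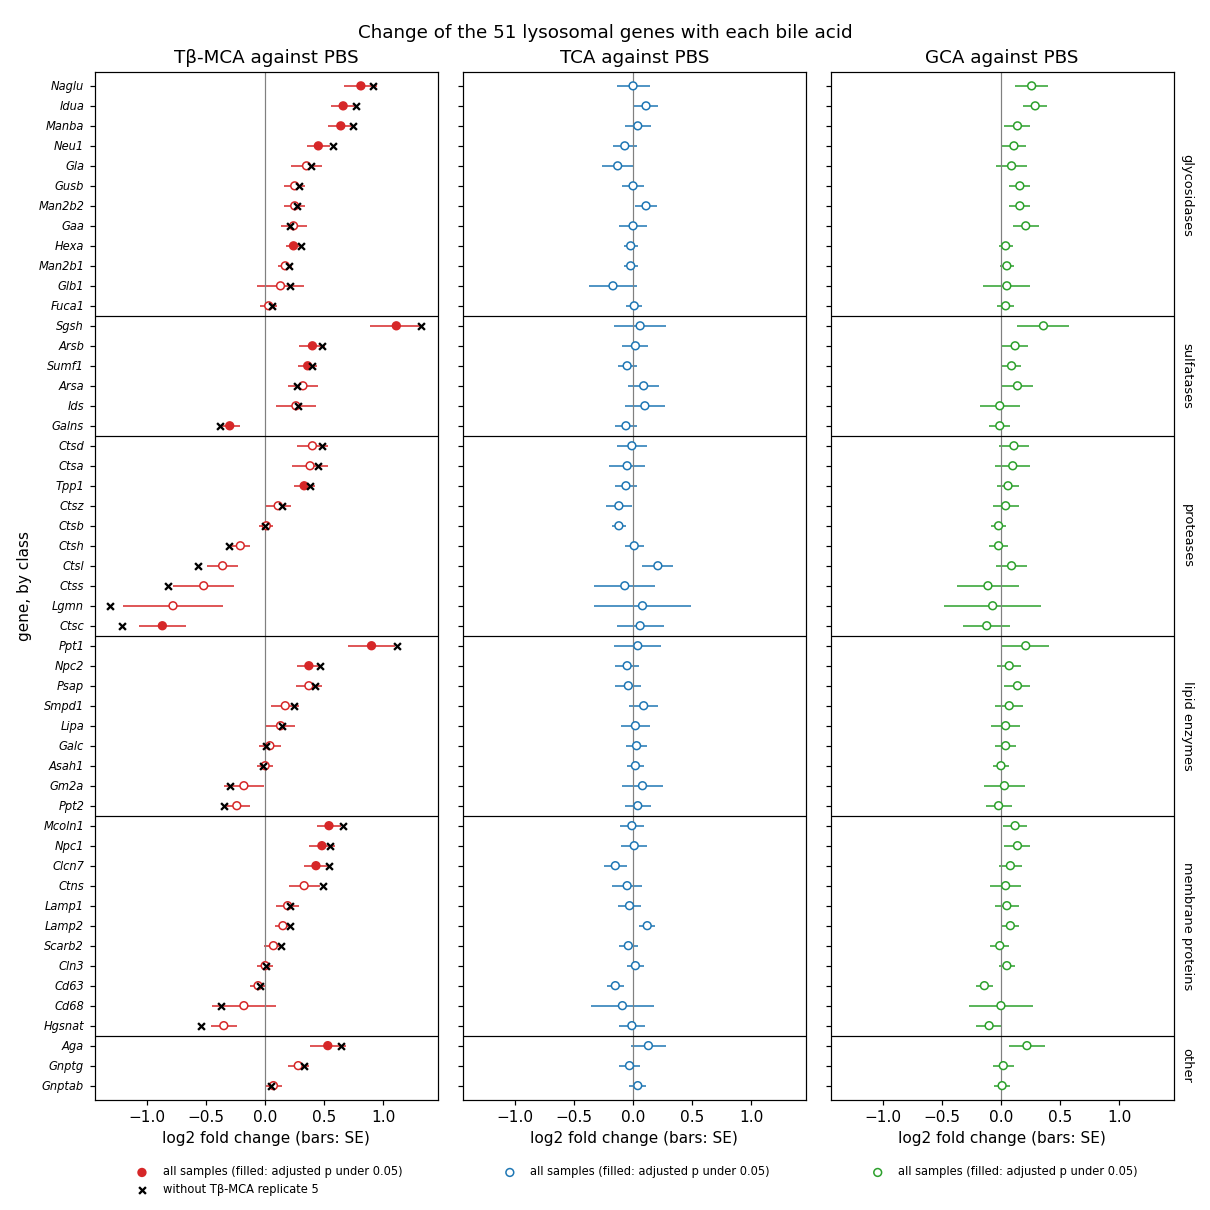
Log2 fold change of each of the 51 genes against PBS (points, with SE as bars) for Tβ-MCA, TCA and GCA, with filled points for an adjusted p under 0.05 and crosses for Tβ-MCA without replicate 5. Values with Tβ-MCA run from -0.87 (Ctsc) to 1.11 (Sgsh), those with TCA from -0.17 to 0.21 and those with GCA from -0.14 to 0.36, and leaving out replicate 5 moves most crosses away from 0.

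Finally, Tβ-MCA was compared with TCA, the other bile acid conjugated with taurine. Of the 51 genes, 13 were higher and 2 lower with Tβ-MCA, beside 2.22% and 1.29% of all genes (3.51% in all). DESeq2 called 20 higher and 3 lower, beside 4.61% and 4.31%, and limma on log2(RPKM + 1) called 0 of the 51 genes and 0% of all 13951 genes it tested. The groups did not overlap for 27 genes that were higher and 4 that were lower, beside 13.3% and 12.1% of all genes. This comparison shares the Tβ-MCA samples with that against PBS, and 14 genes were called in both. Clcn7, Naglu, Manba, Idua and Mcoln1 had the lowest p. Clcn7 was at 50.1, 53.6 and 52.2 CPM with TCA and at 65.8 to 85 CPM with Tβ-MCA (log2 fold change 0.59 ± 0.10, edgeR adjusted p = 0.0323). Naglu was at 11, 10.2 and 10.4 CPM with TCA, below every Tβ-MCA sample (0.81 ± 0.14, edgeR adjusted p = 0.0323). Manba, Idua and Mcoln1 had log2 fold changes of 0.60, 0.55 and 0.55, again without overlap. Ctsl was called against TCA only, at 80.5, 85.7 and 84.4 CPM with TCA and 47.9, 49 and 71.4 CPM with Tβ-MCA (-0.57 ± 0.13, edgeR adjusted p = 0.0411), and Aga, Arsb and Galns against PBS only, without a test of that difference. Without Tβ-MCA replicate 5, 22 genes were higher and 7 lower, beside 7.17% and 8.12% of all genes. Without Tβ-MCA replicate 3, Tβ-MCA replicate 4 or any of TCA replicates 3, 4 and 5, edgeR called 0 of the 51 genes and 0% of all genes. At an unadjusted p under 0.05, 25 genes were higher with all samples (11.3% of all genes). Without TCA replicate 3, 4 or 5 these were 22, 23 and 28 (10.1%, 9.04% and 9.07% of all genes), and without Tβ-MCA replicate 3 or 4 they were 24 and 20 (7.82% and 8.01%).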

How the data were processed

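RNA was sequenced from 12 samples of cultured bone marrow neutrophils. The authors deposited raw read counts per gene, made with Trimmomatic 0.36, STAR 2.5.3a and featureCounts (Subread 1.5.1) on GRCm38/mm10 according to the submitters' processing notes, and RPKM values, which they obtained by dividing the counts by exon length and reads counted. Strand setting and handling of read pairs are not given in the sources used here. Total counts per sample were 32757389 to 41375925, and 3 counts correspond to 0.0725 to 0.0931 CPM (counting error only).

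Counts were tested with edgeR 4.0.16 (filterByExpr, TMM, robust quasi-likelihood fit of all 4 groups, Benjamini-Hochberg adjustment over 16761 genes) in R 4.3.3. Levels between genes were compared as RPKM. The alternatives were DESeq2 1.42.0, limma 3.58.1 on log2(RPKM + 1) and log2(RPKM + 0.1), other scalings and filters, a replicate block and leaving out single samples. The fits were first tested on simulated data.

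The 51 genes, their classes, the other gene lists and the markers were chosen with earlier results of these data known. Named in the text were up to 20 genes of the list with the lowest p against PBS for Tβ-MCA, 5 for Tβ-MCA against TCA, 2 where none passed, the gene with the largest change and that with the highest RPKM of each class, the 4 with the lowest p of each further list and the 3 most abundant markers. Genes outside this rule were given to account for every member. Some results for single genes of the further lists are not reported here. Promoter sequences came from RefSeq (GRCm38.p6). Markers of dendritic cells, eosinophils, basophils and mast cells, B cells, T cells and erythroid cells were also examined. With Tβ-MCA, Siglecf and Cd79a were lower among them and no other passed.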

Additional observations from a re-analysis of the deposited data

How the results depend on the processing

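For Tβ-MCA against PBS, 15 genes of the list were higher and 2 lower. The number higher was 12 to 20 with DESeq2, RLE or total library size, no filter, at least 10 counts, both limma fits and the replicate block, 0 with only the 2 groups compared (26 at an unadjusted p under 0.05), and 1 by the unadjusted p with a fold of at least 2. The number lower was 1 with total library size and with both limma fits, 6 with no filter, and 0 with only the 2 groups compared (5 at an unadjusted p) and by the fold rule. Leaving out 1 sample gave 0 to 21 higher and 0 to 8 lower, and median log2 fold changes from 0.17 to 0.28. For Tβ-MCA against TCA, 13 were higher and 2 lower, with 20 and 3 by DESeq2, 21 and 5 with no filter, 5 and 0 with only the 2 groups compared, 0 and 0 with both limma fits (27 and 7 at an unadjusted p), 1 and 0 by the fold rule, 20 and 3 at an adjusted p under 0.1, and 0 to 22 and 0 to 7 leaving out 1 sample. The cause of these changes was not tested. All 102 alternative counts for TCA against PBS, GCA against PBS and GCA against TCA were 0. The log2 fold change of Cd63 with Tβ-MCA changed sign without PBS replicate 5 (0.00, range -0.10 to 0.00 leaving out 1 sample). Over all genes, Tβ-MCA against PBS gave 745 higher and 533 lower (58.3% higher), with 1013 and 395 (71.9%) by total library size, 1009 and 990 by DESeq2, 1108 and 1298 with no filter, 1459 and 1617 without Tβ-MCA replicate 5, 587 and 274 or 476 and 213 by limma, and 0 of 16064 with only the 2 groups. Against TCA, total library size gave 585 and 190 (75.5% higher) in place of 372 and 216 (63.3%).

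Taking the replicate number as a block in edgeR, 14 genes were higher and 2 (Ctsc and Hgsnat) lower against PBS. Over all 16761 genes these were 771 and 727 (4.6% and 4.34%). Against TCA 23 and 5 were called (1156 and 1166 over all genes). The block without Tβ-MCA replicate 5, chosen after seeing the data, gave 24 and 8 against PBS and 26 and 9 against TCA. Over all 17131 genes of that fit it gave 1643 and 1905 against PBS and 1867 and 2181 against TCA. Samples of the same number correlated at 0.0597 to 0.326 (15 pairs) and others at -0.0716 on average (39 pairs). Of the samples compared, 3 of 4 in Tβ-MCA against PBS and 5 of 6 in Tβ-MCA against TCA correlated best with their own number. The same held for 4 of 4 in TCA against PBS, 4 of 4 in GCA against PBS and 4 of 6 in GCA against TCA. Samples of the same number thus tended to resemble each other. As not every pair was above 0.1 and no label says what a number marks, the numbers were not taken to pair the samples. The main fit therefore leaves out whatever samples of the same number share, which limits its p-values.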
